A study of Danio rerio with 3 samples.

Results

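The genes described here are oc90, stm, otomp, sparc and agr2, a set of 5 otolith and otic secretory genes that were taken by symbol, 1 row each, from the 25109 genes of single-cell RNA sequencing matrices of zebrafish tissue around the otic vesicle. Their Ensembl identifiers are ENSDARG00000001721 (oc90), ENSDARG00000035694 (stm), ENSDARG00000040306 (otomp), ENSDARG00000019353 (sparc) and ENSDARG00000070480 (agr2). The study deleted shox2, a homeobox transcription factor gene, and asked how otic progenitors and the neurons of the statoacoustic ganglion develop without it. There were 3 libraries, 1 per genotype, each from embryos pooled by genotype. The labels give 22 hours post fertilization (hpf) as the stage, while the methods describe earlier stages collected into the same pools. The shox2Δ/Δ library came from GFP-negative embryos of a Tg(shox2Gal4/Δ; UAS:GFP) in-cross, which were homozygous for the CRISPR/Cas9 deletion allele shox2Δ. A library labelled shox2Δ/+ is not described in the methods text, but DsRed or EGFP transcripts were found in its cells. The shox2+/+ library came from embryos kept for carrying both the Tg(neurog1:dsRed) and Tg(neurod1:EGFP) reporters. Genotype, cross, reporter and library therefore cannot be told apart, no test between genotypes was possible, and every interval below is a 95% interval that covers counting error only.

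Otoliths are the calcium carbonate and protein bodies that rest over the sensory patches of the fish inner ear and serve balance and hearing. Cells of the otic epithelium secrete a protein matrix into the lumen of the vesicle, and the mineral grows on that matrix. Of the set, oc90 encodes otoconin 90, a phospholipase A2-like protein of the otolith matrix, stm encodes Starmaker, an acidic protein that sets the crystal form of the otolith, and otomp encodes otolith matrix protein, which is needed for otolith growth. The last 2 genes act more widely: sparc encodes osteonectin, a secreted glycoprotein that binds calcium and collagen, and agr2 encodes a protein disulfide isomerase of the endoplasmic reticulum that serves mucin folding in mouse intestine.

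Cells with at least 500 and under 6500 detected genes and under 5% mitochondrial unique molecular identifiers (UMIs) were kept, which left 6672 of 8877 barcodes in the shox2Δ/Δ library, 8233 of 10419 in the shox2Δ/+ library and 8548 of 10466 in the shox2+/+ library. The median cell held between 16570 and 19450 UMIs. In all kept cells shox2 was at 1.00 UMIs per 1000000 UMIs of the same cells (CPM; 131 UMIs) in shox2Δ/Δ, 4.52 CPM (713 UMIs) in shox2Δ/+ and 2.20 CPM (388 UMIs) in shox2+/+, and whether its 3′ reads fall in the deleted stretch was not examined. The shox2 level of shox2Δ/+ lay above that of shox2+/+, while RT-qPCR of individual embryos in the paper put shox2Δ/+ below shox2+/+. The reason was not tested. Cells were clustered with the 5 genes and the reporters left out of the clustering genes. The cluster called otic-like raised 11 of the 14 otic markers found by at least 2-fold over all other cells in every library, while pax8, sox9a and zpld1a were not raised. It held 233 cells in shox2Δ/Δ (3.49% of the library, 3.06 to 3.96%), 214 in shox2Δ/+ (2.60%, 2.27 to 2.97%) and 315 in shox2+/+ (3.69%, 3.30 to 4.11%), shares that the dissection can set.

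Libraries shared cell barcodes, and this bears on the otic-like cells. Among kept cells 551 barcodes were common to the shox2Δ/Δ and shox2+/+ libraries, 190 to shox2Δ/Δ and shox2Δ/+, and 66 to shox2Δ/+ and shox2+/+. A barcode also present in another library was carried by 124 otic-like cells in shox2Δ/Δ (53.2%), 75 in shox2Δ/+ (35.0%) and 161 in shox2+/+ (51.1%). For 64, 57 and 35 of these cells, in the same order, the other library held more UMIs of that barcode. These shallower copies had a median of 1333 UMIs in shox2Δ/Δ, 1213 in shox2Δ/+ and 1140 in shox2+/+, against 26457, 24817 and 22332 in the remaining otic-like cells, and gave 1.94%, 1.60% and 0.64% of the otic-like UMIs. In shox2Δ/Δ, whose embryos were chosen as GFP-negative, the DsRed and EGFP reporter transcripts stood at 411 CPM in the shallower copies and 1.22 CPM in the other otic-like cells. In the other otic-like cells of shox2Δ/+ and shox2+/+ they stood at 39.3 and 1279 CPM. Over all kept cells other than shallower copies they were at 2.64 CPM in shox2Δ/Δ, 264 CPM in shox2Δ/+ and 388 CPM in shox2+/+. The main results on otic-like cells are therefore also given without cells that shared a barcode, or without the shallower copies.

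All 5 genes were higher in otic-like cells than in all other cells of each library. stm was the most restricted of the abundant members, with 3005 CPM in otic-like cells and 15.2 CPM in all other cells of shox2Δ/Δ, 2904 and 15.4 CPM in shox2Δ/+, and 2267 and 4.90 CPM in shox2+/+. The ratio of otic-like to other cells was 198-fold in shox2Δ/Δ, 188-fold in shox2Δ/+ and 462-fold in shox2+/+. The otic-like cells, which gave 2.92 to 3.99% of all UMIs of a library, held 88.7%, 84.97% and 95.1% of its stm UMIs in that same order of libraries.

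oc90 had 2467 CPM in otic-like cells and 64.98 CPM in other cells of shox2Δ/Δ, 2299 and 60.9 CPM in shox2Δ/+, and 1369 and 35.0 CPM in shox2+/+. These are ratios of 38.0-fold, 37.7-fold and 39.1-fold. The otic-like cells held a smaller share of oc90 than of stm UMIs, 60.1% in shox2Δ/Δ, 53.1% in shox2Δ/+ and 61.9% in shox2+/+. otomp was scarce but nearly confined to otic-like cells in these counts. It gave 69 UMIs there in shox2Δ/Δ (13.8 CPM), 76 in shox2Δ/+ (16.5 CPM) and 149 in shox2+/+ (21.2 CPM), against 3, 6 and 7 UMIs in all other cells (0.0238, 0.0392 and 0.0414 CPM).

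The broadly expressed member was sparc. It had 2375 CPM in otic-like cells and 364 CPM in other cells of shox2Δ/Δ, 2494 and 402 CPM in shox2Δ/+, and 2332 and 433 CPM in shox2+/+, so that otic-like cells held only 20.6%, 15.7% and 18.3% of its UMIs. For agr2 the place of its UMIs differed by library. It had 444 CPM in otic-like cells and 33.3 CPM in other cells of shox2Δ/Δ, 441 and 31.1 CPM in shox2Δ/+, and 854 and 6.79 CPM in shox2+/+. The otic-like share of agr2 UMIs was 34.7% in shox2Δ/Δ, 29.9% in shox2Δ/+ and 83.9% in shox2+/+. With shared-barcode cells left out, all 15 pairs of gene and library were still higher in otic-like cells. The share of all genes that are higher in otic-like cells was not computed, with or without these cells. The count therefore describes levels and is no trait particular to these genes.

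**Figure D1:**
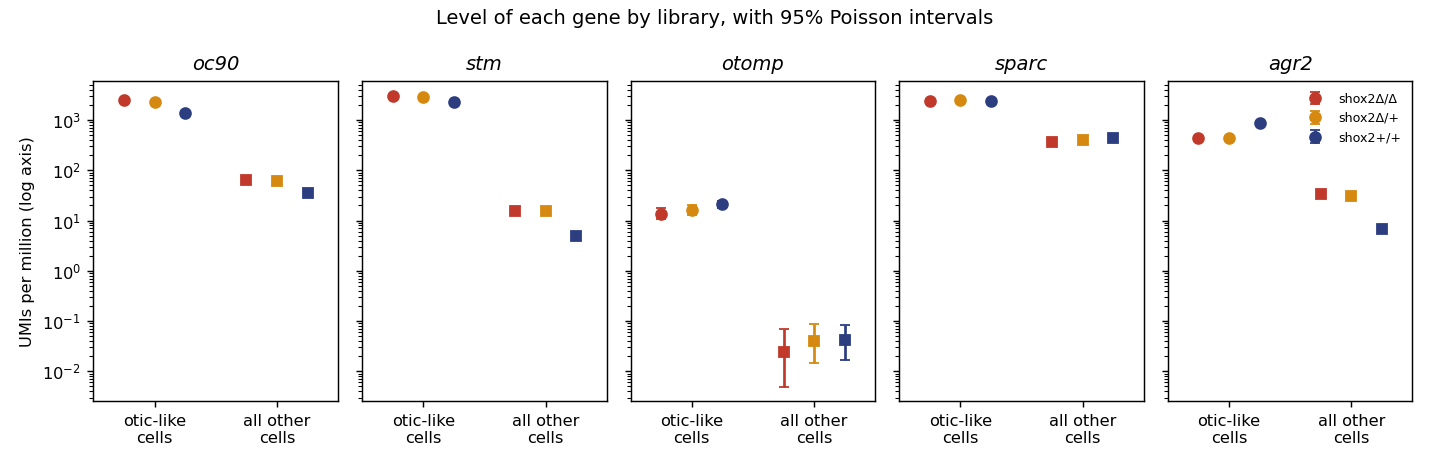
Level of each gene (CPM, log axis) in otic-like cells (circles) and all other cells (squares) of the shox2Δ/Δ, shox2Δ/+ and shox2+/+ libraries, with 95% Poisson intervals, which are narrower than most points. Circles lie above squares for every gene, by 5.39-fold for sparc and 462-fold for stm in shox2+/+.

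Most otic-like cells carried several members. After each cell was thinned to 3000 UMIs, which left out 68, 66 and 45 shallower cells in shox2Δ/Δ, shox2Δ/+ and shox2+/+, an oc90 UMI was found in 89.7% of 165 cells of shox2Δ/Δ (84.0 to 93.9%), 91.2% of 148 cells of shox2Δ/+ (85.4 to 95.2%) and 85.9% of 270 cells of shox2+/+ (81.2 to 89.8%). The unthinned shares were 88.8%, 92.1% and 94.0%. Endothelium-like cells, which should lack the otolith genes, had oc90 in 1.23% of 81 cells, 3.37% of 89 cells and 0 of 131 cells (up to 2.29%) of the 3 libraries, at median depths of 8525, 17629 and 18022 UMIs against 20222, 19962 and 21364 UMIs in otic-like cells.

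stm was found in 95.2%, 93.9% and 88.9% of thinned otic-like cells of shox2Δ/Δ, shox2Δ/+ and shox2+/+ (94.4%, 93.5% and 95.6% unthinned) and in 0 of 81 (up to 3.70%), 1.12% and 0.763% of endothelium-like cells. The intervals of the otic-like and endothelium-like shares did not overlap in any library for oc90, stm, sparc or agr2. The share of all genes that separate these 2 classes in this way was not computed, so this describes levels and is no trait particular to these genes. agr2 was found in 50.9%, 54.1% and 60.4% of thinned otic-like cells, and sparc in 90.9%, 91.9% and 88.5%, beside 51.9%, 49.4% and 66.4% of endothelium-like cells, which express sparc themselves. otomp reached 3.03%, 2.70% and 5.93% of thinned otic-like cells, and only in shox2+/+ did its interval (3.42 to 9.45%) lie above that of endothelium-like cells (0 of 131, up to 2.29%). Unthinned, otomp was seen in 18.5% of otic-like cells of shox2Δ/Δ, 22.4% of shox2Δ/+ and 29.8% of shox2+/+. With shared-barcode cells left out, the thinned shares were 87.3%, 90% and 85.3% for oc90, 95.1%, 93.1% and 90.9% for stm, and 50%, 50% and 61.5% for agr2.

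The levels varied widely between cells. Among otic-like cells with at least 3000 UMIs, the median cell had 2046 CPM of oc90 in shox2Δ/Δ (10th to 90th percentile 287 to 4134), 1844 in shox2Δ/+ (591 to 4234) and 1148 in shox2+/+ (182 to 2793). For stm the medians were 2836, 2441 and 2207 CPM, and 1, 3 and 8 cells of these libraries had no UMI. sparc was close to even across libraries, with medians of 1794, 1951 and 1894 CPM. agr2 was the most unequal of the abundant members: its median was 303 CPM in shox2Δ/Δ, 246 in shox2Δ/+ and 451 in shox2+/+, and the 10% of cells with most UMIs held 36.4%, 39.7% and 44.5% of its UMIs.

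Cells high in one otolith gene tended to be high in the other. Over thinned otic-like cells, Spearman's rho between oc90 and stm was 0.65 in shox2Δ/Δ, 0.58 in shox2Δ/+ and 0.57 in shox2+/+, and the lowest rho among the pairs of oc90, stm, sparc and agr2 was 0.25, for oc90 and agr2 in shox2Δ/Δ. Cells of a library are not independent samples, and the thinned cells share 1 depth. All of oc90, stm, sparc and agr2 were found together in 46.7% of thinned cells in shox2Δ/Δ, 50% in shox2Δ/+ and 52.6% in shox2+/+, and none of these 4 in 1, 2 and 8 cells.

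**Figure D2:**
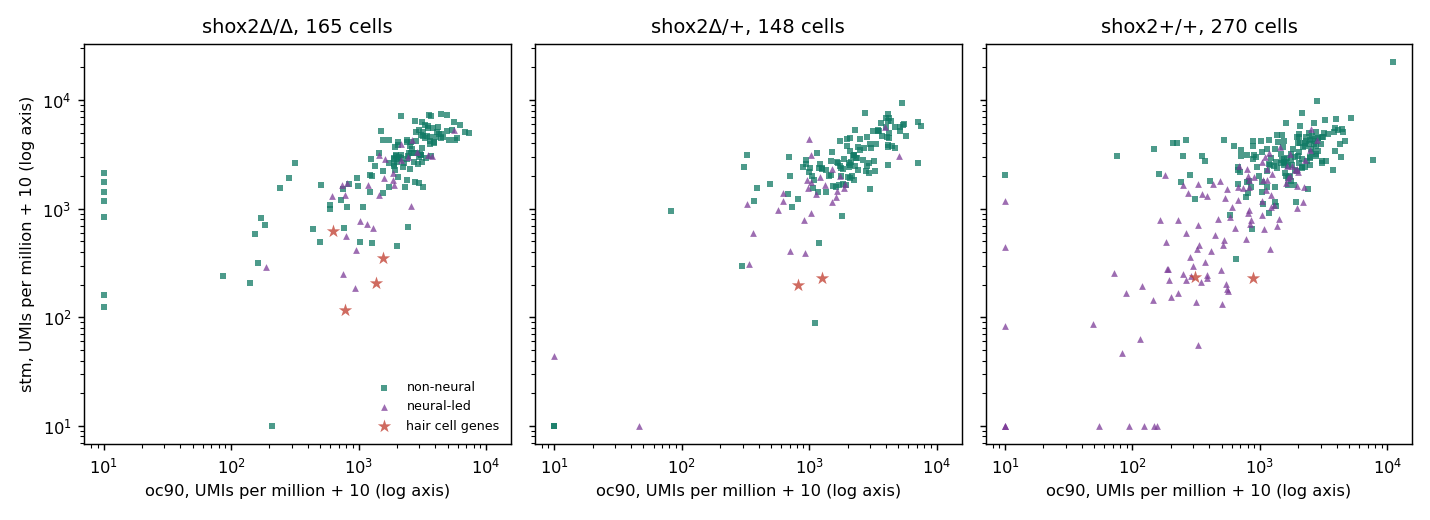
oc90 (x axis) and stm (y axis) in each otic-like cell with at least 3000 UMIs, both as CPM plus 10 on log axes, in shox2Δ/Δ (165 cells), shox2Δ/+ (148) and shox2+/+ (270). Marks show the subclusters: non-neural (squares), led by neuronal genes (triangles) and led by hair cell genes (stars). Both genes rise together across cells, and the low cells of shox2+/+ are mostly from the subclusters led by neuronal genes.

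The otic-like population was not uniform, and its makeup differed between libraries. Subclustering gave 7 groups, of which 2 were led by neuroblast or neuronal genes such as neurod1 and elavl3. Another 1 was led by the hair cell genes s100t and otofb, and 4 by neither. These 4 are called non-neural only by that rule, as neurog1 was not in the lists and led 1 of them. That subcluster had neurog1 at 127 CPM and neurod1 at 65.2 CPM over all libraries. The neural-led ones had 190 and 2730 CPM, and 66.1 and 627 CPM. It held 57, 50 and 8 cells without shallower copies in shox2Δ/Δ, shox2Δ/+ and shox2+/+, so the counts below depend on where it is placed. With shallower copies left out, the 4 non-neural subclusters held 135 cells in shox2Δ/Δ, 126 in shox2Δ/+ and 164 in shox2+/+, while the neural-led subclusters held 30, 29 and 114 cells and gave 18.2%, 15.7% and 38.6% of the otic-like UMIs. The 10 neuroblast and sensory neuron markers summed to 342 CPM in otic-like cells of shox2Δ/Δ (0 of 10 at 0), 288 in shox2Δ/+ (1 at 0) and 1058 in shox2+/+ (0 at 0). neurod1, a neuroblast transcription factor gene whose reporter was used to choose the shox2+/+ embryos, made up most of that sum with 227, 201 and 902 CPM. neurog1, which is not among these markers and whose reporter was also used, went the other way, with 91.4, 69.8 and 46.4 CPM.

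All 5 genes were lower in the neural-led than in the non-neural subclusters of every library, with wide intervals for otomp. For oc90 the neural-led level was 1650 CPM and the non-neural level 2722 CPM in shox2Δ/Δ (log2 ratio −0.72, −0.80 to −0.64), 1321 and 2484 CPM in shox2Δ/+ (−0.91, −1.01 to −0.81), and 674 and 1815 CPM in shox2+/+ (−1.43). stm behaved alike, with 1919 and 3362 CPM (−0.81), 1551 and 3185 CPM (−1.04), and 975 and 3114 CPM (−1.67) in the same order. The gap was widest for agr2 in shox2Δ/+, where 106 CPM in the neural-led subclusters stood against 499 CPM in the non-neural ones (−2.24, −2.59 to −1.90), and in shox2+/+, with 292 against 1222 CPM (−2.07, −2.18 to −1.96). In shox2Δ/Δ the agr2 values were 270 and 471 CPM (−0.80).

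Cells led by hair cell genes were few, with 4 in shox2Δ/Δ, 2 in shox2Δ/+ and 2 in shox2+/+. They held oc90 at 1098, 1032 and 592 CPM but stm at only 267, 206 and 222 CPM. No otomp UMI was found in them, which allows up to 23.5, 68.8 and 55.5 CPM. sparc stood at 886, 436 and 166 CPM and agr2 at 157, 183 and 388 CPM in these cells, each from under 120 UMIs. One non-neural subcluster, led by rbm24a, mb and sp5l, held 43 shox2+/+ cells but only 3 cells in each of the other libraries, and had stm at 5450, 5009 and 4211 CPM and sparc at 4515, 4284 and 3953 CPM in shox2Δ/Δ, shox2Δ/+ and shox2+/+.

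Between genotypes, oc90 and stm were higher and agr2 lower in otic-like cells of both libraries that carried the deletion. For oc90 the 2467 CPM of shox2Δ/Δ against 1369 CPM of shox2+/+ gave a log2 ratio of 0.85 (0.81 to 0.89), and the 2299 CPM of shox2Δ/+ gave 0.75 (0.71 to 0.79). For stm the log2 ratios were 0.41 (0.37 to 0.44) in shox2Δ/Δ and 0.36 (0.32 to 0.39) in shox2Δ/+ over shox2+/+. The shox2Δ/Δ and shox2Δ/+ libraries lay close to each other, with log2 ratios of shox2Δ/Δ over shox2Δ/+ of 0.10 (0.06 to 0.14) for oc90 and 0.05 (0.02 to 0.08) for stm.

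agr2 was lower, with log2 ratios of −0.94 (−1.01 to −0.87) in shox2Δ/Δ and −0.95 (−1.03 to −0.88) in shox2Δ/+ over shox2+/+, and 0.01 (−0.08 to 0.10) between shox2Δ/Δ and shox2Δ/+. otomp was at −0.62 (−1.06 to −0.20) in shox2Δ/Δ and −0.36 (−0.78 to 0.05) in shox2Δ/+, the last interval including 0. sparc was nearly even, at 0.03 (−0.01 to 0.06) and 0.10 (0.06 to 0.13). The median log2 ratio of all genes with at least 50 CPM in otic-like cells of either library was 0.09 for shox2Δ/Δ over shox2+/+ and 0.00 for shox2Δ/+ over shox2+/+.

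None of the 4 members that reached 50 CPM passed 2-fold in otic-like cells in either comparison, where 6.24% of 2662 genes did for shox2Δ/Δ over shox2+/+ and 4.23% of 2577 genes for shox2Δ/+ over shox2+/+. Between shox2Δ/Δ and shox2Δ/+ 0.508% of 2557 genes passed. agr2 lay near the edge, with 49 genes lower than it in each of the comparisons with shox2+/+, and oc90 had 175 and 129 genes above it. Without the shallower copies, where no share over all genes was computed, agr2 was at −1.01 in shox2Δ/Δ, past 2-fold, and −0.98 in shox2Δ/+. Without any shared barcode its values were −0.80 (−0.91 to −0.69) and −0.86 (−0.96 to −0.76), those of oc90 were 0.85 and 0.78, and those of stm were 0.33 and 0.29. sparc turned to −0.16 (−0.22 to −0.10) in shox2Δ/Δ and stayed at 0.13 (0.08 to 0.18) in shox2Δ/+.

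The makeup of the population moved with these ratios, and the non-neural cells of the libraries lay largely in different subclusters. With shallower copies left out, the subcluster led by tbx1, ccn2a and dlx3b held 74 cells of shox2Δ/Δ, 72 of shox2Δ/+ and 4 of shox2+/+, and that led by cahz, neurog1 and prdm12b held 57, 50 and 8. The subcluster led by tbx1, krt18a.1 and otx1 held 1, 1 and 109 cells. Ratios over the pooled non-neural cells therefore set different subclusters against each other, and a difference in cell state and one in level within a state cannot be told apart. Pooled over the non-neural subclusters, the log2 ratio of shox2Δ/Δ over shox2+/+ was 0.58 (0.54 to 0.63) for oc90, 0.11 (0.08 to 0.15) for stm, −0.87 (−1.36 to −0.39) for otomp, −0.25 (−0.29 to −0.21) for sparc and −1.38 (−1.45 to −1.30) for agr2. For shox2Δ/+ over shox2+/+ the values there were 0.45, 0.03, −0.58, −0.17 and −1.29. The interval of stm in shox2Δ/+ included 0. In this pooled set agr2 passed 2-fold in both comparisons, as did 5.67% and 3.96% of all genes with at least 50 CPM there, and its level was 471 CPM in shox2Δ/Δ and 499 CPM in shox2Δ/+, against 1222 CPM in shox2+/+. Its 2 largest subclusters in shox2Δ/Δ stood at 509 and 402 CPM, and those of shox2+/+, which held 3 or fewer cells of either deletion library, at 1156 and 1555 CPM. Among the non-neural subclusters, only that led by cahz, neurog1 and prdm12b had agr2 higher in the deletion libraries. It stood there at 402 CPM in shox2Δ/Δ and 547 CPM in shox2Δ/+, against 52.7 CPM in shox2+/+, from 7 UMIs in 8 cells.

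Within the neural-led subclusters the ratios were larger for oc90 and stm. oc90 was at 1.29 (1.19 to 1.39) in shox2Δ/Δ and 0.97 (0.85 to 1.08) in shox2Δ/+ over shox2+/+, and stm at 0.98 (0.89 to 1.06) and 0.67 (0.57 to 0.77). agr2 was at −0.11 (−0.33 to 0.10) in shox2Δ/Δ, an interval that included 0, and at −1.46 (−1.83 to −1.12) in shox2Δ/+. There 8.29% of 2727 genes and 4.19% of 2604 genes passed 2-fold. No test of the difference between the subclusters was possible with 1 library per genotype.

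**Figure D3:**
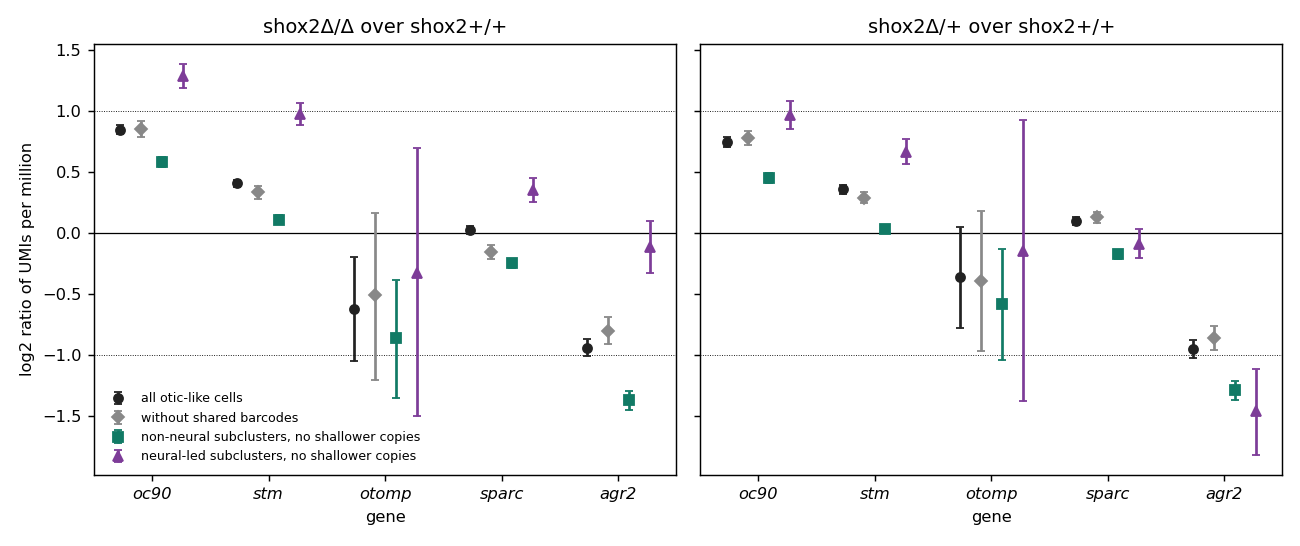
log2 ratio of the CPM in shox2Δ/Δ over shox2+/+ (left) and shox2Δ/+ over shox2+/+ (right) for each gene, in all otic-like cells (circles), without shared barcodes (diamonds), in the non-neural subclusters (squares) and in the neural-led subclusters (triangles), with 95% intervals for counting error. Dotted lines mark 2-fold. oc90 lies above 0 and agr2 below 0 for every set of cells, and stm lies nearest 0 in the non-neural subclusters, whose cells fall in different subclusters by library.

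Outside the otic-like cells each gene had its own pattern. The cell classes with the highest oc90 after otic-like cells were on the ventral midline. Cluster 26, led by shha, col9a1b and spon1b and carrying the floor plate genes ntn1b, foxa2 and foxj1a, held 113 cells in shox2Δ/Δ, 145 in shox2Δ/+ and 62 in shox2+/+, with oc90 at 1597, 1963 and 1327 CPM. The otic genes pax2a, sox10 and six1b were at 1.05, 3.93 and 9.70 CPM in cluster 26, against 313, 344 and 569 CPM in the otic-like cluster over all 3 libraries. After thinning, oc90 was found in 76.6%, 85.3% and 87.9% of its cells, beside 1.23%, 3.37% and 0 of 131 endothelium-like cells.

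stm and otomp were far lower at this site than in otic-like cells. Cluster 26 had stm at 18.8, 15.98 and 21.7 CPM in shox2Δ/Δ, shox2Δ/+ and shox2+/+, and no otomp UMI. Per 100 oc90 UMIs, cluster 26, which belongs to the notochord and floor plate-like class, had 1.18, 0.814 and 1.64 stm UMIs, against 122, 126 and 166 in otic-like cells. Nearly all oc90 UMIs of that class lay in cluster 26. sparc was high there, at 2576, 3514 and 4185 CPM, and agr2 low, at 21.8, 29.4 and 18.4 CPM. The oc90 level of cluster 26 over shox2+/+ gave a log2 ratio of 0.27 in shox2Δ/Δ and 0.56 in shox2Δ/+, below its ratios in otic-like cells. In this cluster 11.6% of 2771 genes and 9.91% of 2684 genes passed 2-fold in these comparisons. The 10 cells with most oc90 held 43.9%, 34.5% and 54.0% of the oc90 UMIs of cluster 26. Without its cells of 10 or more oc90 UMIs (51, 80 and 39 cells) the levels were 258, 357 and 309 CPM. This turned the order of shox2Δ/Δ and shox2+/+, but the cut is on oc90 itself.

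Lower levels of oc90 were found in neural and neural crest cells. Cluster 2, led by the midbrain-hindbrain genes en2a and en2b, had 267 CPM in shox2Δ/Δ, 133 in shox2Δ/+ and 120 in shox2+/+. Without its cells of 10 or more oc90 UMIs (56, 53 and 23 cells) the levels were 72.5, 47.9 and 81.2 CPM, which turned the order of shox2Δ/Δ and shox2+/+. This cut is on oc90 itself and took more cells from shox2Δ/Δ, so the turned order is partly set by the cut. Neural crest-like cells had 167, 159 and 95.9 CPM with stm at 2.39, 2.93 and 1.17 CPM. Thinned to 3000 UMIs, oc90 was seen in 36.7%, 42.2% and 22.0% of neural crest-like cells and stm in at most 0.781%. Endothelium-like cells had the lowest oc90 of the 18 classes with at least 50 cells in each library, at 10.4, 5.37 and 3.34 CPM.

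The higher oc90 of the deletion libraries was not confined to otic-like cells. In all other cells the log2 ratio over shox2+/+ was 0.89 (0.85 to 0.94) in shox2Δ/Δ and 0.80 (0.75 to 0.85) in shox2Δ/+, near the values in otic-like cells. Of the 17 other classes with at least 50 cells in each library, the interval lay above 0 in 15 and below 0 in 1 for shox2Δ/Δ, and above 0 in 10 and below 0 in 1 for shox2Δ/+. The exception in both was cluster 7, led by vcanb and angptl7, with 28.6 CPM in shox2Δ/Δ and 22.6 in shox2Δ/+, against 39.4 in shox2+/+. The share of all genes that differ in as many classes was not computed. These counts therefore describe oc90 levels and are no trait particular to it. Without shared barcodes the ratios in all other cells were 1.003 and 1.05. With every other cell of 10 or more oc90 UMIs left out, the levels were 27.7 CPM in shox2Δ/Δ and 25.96 CPM in shox2Δ/+, against 21.2 CPM in shox2+/+. Such a cut tends by itself to narrow a difference.

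**Figure D4:**
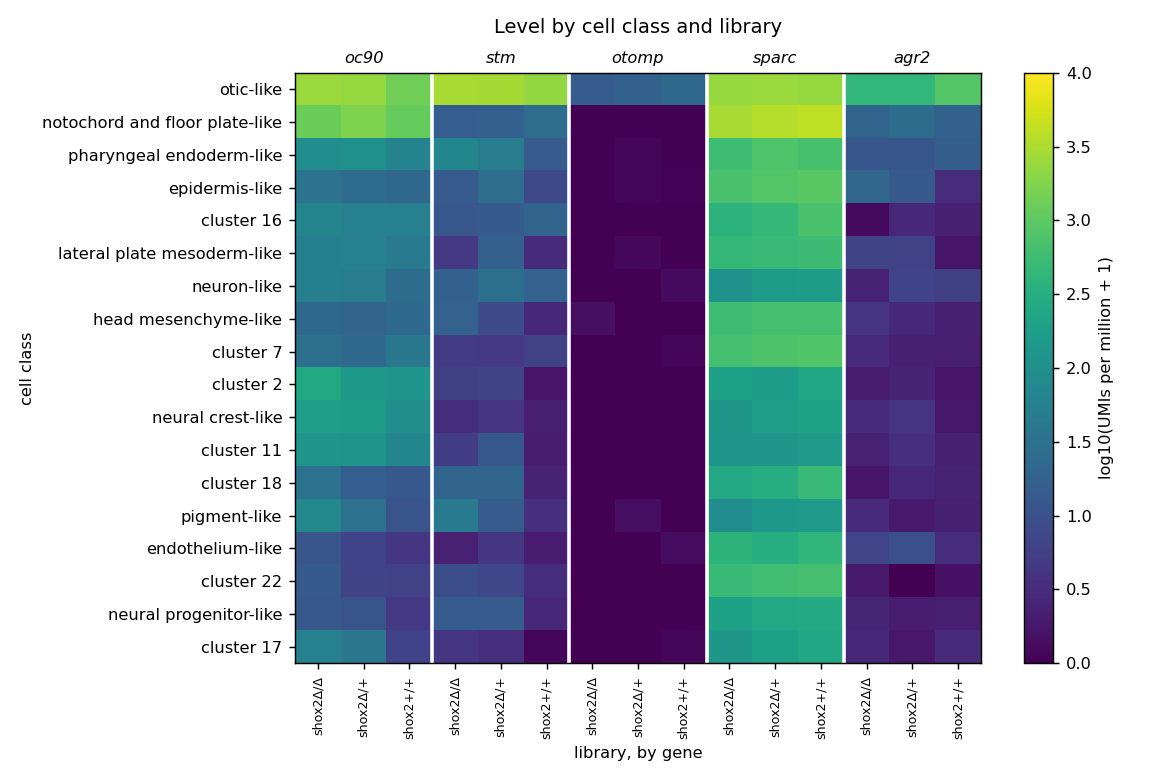
Level of the 5 genes as log10 of CPM plus 1 (colour) in the 18 cell classes with at least 50 cells in every library (rows), by gene and library (columns). otomp is seen only in the otic-like row at this scale, oc90 is high in the otic-like row and in that of the notochord and floor plate, and sparc is at 90.3 CPM or more in every class. Cluster 26 held 2124 of 2144, 3071 of 3075 and 1223 of 1226 oc90 UMIs of the notochord and floor plate row in shox2Δ/Δ, shox2Δ/+ and shox2+/+.

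stm outside otic-like cells was low and uneven. It was found in 661 other cells of shox2Δ/Δ, 795 of shox2Δ/+ and 322 of shox2+/+, and the 10 cells with most UMIs held 19.8%, 25.4% and 41.4% of its UMIs there. Its level was 15.2 CPM in shox2Δ/Δ and 15.4 CPM in shox2Δ/+, against 4.90 CPM in shox2+/+, which gives log2 ratios of 1.63 (1.51 to 1.75) and 1.65 (1.54 to 1.77), and 2.11 and 2.24 without shared barcodes. Pharyngeal endoderm-like cells had the highest stm of these 17 classes in both deletion libraries, with 68.4 CPM in shox2Δ/Δ and 47.6 CPM in shox2Δ/+, against 13.3 CPM in shox2+/+. In shox2+/+ the notochord and floor plate-like class was the highest of them, with 25.9 CPM (17.2 to 37.4). Hatching gland-like cells are not among these classes, with 23 cells in shox2Δ/Δ, 65 in shox2Δ/+ and 16 in shox2+/+. They had stm at 48.3, 28.7 and 137 CPM in that order, and at 40.4, 24.6 and 39.6 CPM without cells of 10 or more stm UMIs. In pharyngeal endoderm-like cells stm was spread over 123, 110 and 47 cells, and with every cell of 10 or more stm UMIs left out it was still 48.1, 39.5 and 11.3 CPM.

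In pharyngeal endoderm-like cells the stm log2 ratios were 2.36 in shox2Δ/Δ and 1.84 in shox2Δ/+, where 4.42% of 6792 genes and 3.44% of 6772 genes with at least 10 CPM were at least 2-fold higher and 21 and 51 genes were higher than stm. In cluster 3, a neural progenitor-like cluster led by dbx1b and cyp26b1, stm had 34.0 CPM in shox2Δ/Δ and 22.3 CPM in shox2Δ/+, against 2.13 CPM in shox2+/+. These are log2 ratios of 4.00 and 3.39, in a cluster where 5.36% of 6327 genes and 4.29% of 6272 genes were at least 2-fold higher and where 11 and 10 genes were higher than stm. Here stm reached 10 CPM only in the deletion libraries, so its rank in cluster 3 is partly set by the filter. The 10 cells with most stm held 64.2%, 65.6% and 53.6% of its UMIs in cluster 3, and without cells of 10 or more UMIs the levels were 17.96, 10.01 and 2.13 CPM. Cluster 0, also neural progenitor-like and led by dbx1b, held 498 cells of shox2Δ/Δ and 778 of shox2Δ/+ with stm at 26.9 and 32.1 CPM, but only 11 cells of shox2+/+, so that most dbx1b cells of the deletion libraries lay in another cluster than those of shox2+/+. After thinning, 7.97%, 4.86% and 0.712% of the cells of cluster 3 had stm, beside 0 of 81 (up to 3.70%), 1.12% and 0.763% of endothelium-like cells.

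The ratio of stm to oc90 outside otic-like cells differed by class. Per 100 oc90 UMIs there were 122 stm UMIs in otic-like cells of shox2Δ/Δ, 126 in shox2Δ/+ and 166 in shox2+/+. Neural progenitor-like cells pooled had 118, 138 and 51.3, close to the otic-like ratio in the deletion libraries, but clusters 3 and 0 within them lay above it there. Cluster 3 had 207, 205 and 65.1. Cluster 0 had 231 in shox2Δ/Δ and 332 in shox2Δ/+, with only 1 oc90 UMI in shox2+/+. Pharyngeal endoderm-like cells had 76.8, 46.9 and 21.8, and neural crest-like cells 1.44, 1.85 and 1.22. Whether stray RNA or doublets with otic cells took part in the outside levels was not tested.

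sparc was present in every class. The notochord and floor plate-like class had more sparc than otic-like cells, with 2998 CPM in shox2Δ/Δ, 3553 in shox2Δ/+ and 4087 in shox2+/+, against 2375, 2494 and 2332 CPM in otic-like cells. Within it cluster 41, led by notochord genes and high in col2a1a, had 4525, 3783 and 3526 CPM in 20, 14 and 7 cells. Epidermis-like cells came next among the named classes, at 719, 845 and 960 CPM, and pigment-like cells had 90.3, 136 and 137 CPM, the lowest of the 18 classes in shox2Δ/Δ and shox2+/+. In shox2Δ/+ cluster 11, led by dlx2a and twist1a, was lowest at 120 CPM.

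In contrast to oc90, sparc outside otic-like cells was lower in the deletion libraries, by a small amount in all other cells: the log2 ratio was −0.25 (−0.27 to −0.23) in shox2Δ/Δ and −0.11 (−0.12 to −0.09) in shox2Δ/+ over shox2+/+. The interval lay below 0 in all 17 other classes for shox2Δ/Δ, with a median of −0.42. For shox2Δ/+ it lay below 0 in 14 classes and above 0 in 1, with a median of −0.18. Leaving out shared barcodes kept the shox2Δ/Δ value in all other cells at −0.29 but brought that of shox2Δ/+ to 0.02. The share of all genes that are lower in as many classes was not computed, so the class counts describe levels of sparc only.

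agr2 outside otic-like cells was concentrated in a secretory cell type. Hatching gland-like cells, which make the proteases that free the embryo from its chorion, had agr2 at 1574 CPM in shox2Δ/Δ (23 cells), 993 CPM in shox2Δ/+ (65 cells) and 689 CPM in shox2+/+ (16 cells). A UMI of agr2 was seen in 20, 53 and 14 of these cells. They held 44.7%, 57.5% and 6.86% of the agr2 UMIs of these libraries. Cluster 31, led by s100a11 and the keratin genes cyt1 and cyt1l, had 627, 208 and 398 CPM in 70, 91 and 40 cells and held 9.60%, 3.64% and 3.58%. These UMIs came from few cells: 4 cells of shox2Δ/Δ held 607 of 616, 2 of shox2Δ/+ held 230 of 247 and 3 of shox2+/+ held 254 of 256, and without them the levels were 10.1, 14.8 and 3.62 CPM.

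The agr2 level of all other cells, 33.3 CPM in shox2Δ/Δ and 31.1 CPM in shox2Δ/+, against 6.79 CPM in shox2+/+, gave log2 ratios of 2.29 (2.20 to 2.39) and 2.20 (2.10 to 2.29), opposite in sign to those in otic-like cells. Without hatching gland-like cells the levels were 10.7, 5.74 and 3.90 CPM, with log2 ratios of 1.45 and 0.56. Without cluster 31 as well they were 5.76, 4.11 and 2.39 CPM, with ratios of 1.27 and 0.78. Leaving out shared barcodes instead gave 9.09, 6.77 and 2.34 CPM, with ratios of 1.96 and 1.53. Hatching gland-like cells were 0.345% of the shox2Δ/Δ library (0.219 to 0.517%), 0.790% of shox2Δ/+ (0.610 to 1.01%) and 0.187% of shox2+/+ (0.107 to 0.304%). The intervals of shox2Δ/Δ and shox2+/+ overlapped, and the dissection can set these shares. Epidermis-like cells had 19.5, 12.8 and 2.24 CPM of agr2, but 1 cell held 73.4% of these UMIs in shox2Δ/Δ, and without cells of 10 or more UMIs the levels were 4.46, 3.99 and 2.24 CPM. The agr2 level of all other cells likewise rested on few cells. Without the 27, 42 and 16 other cells that held 10 or more agr2 UMIs it was 3.10 CPM in shox2Δ/Δ and 3.29 CPM in shox2Δ/+, against 2.08 CPM in shox2+/+.

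**Figure D5:**
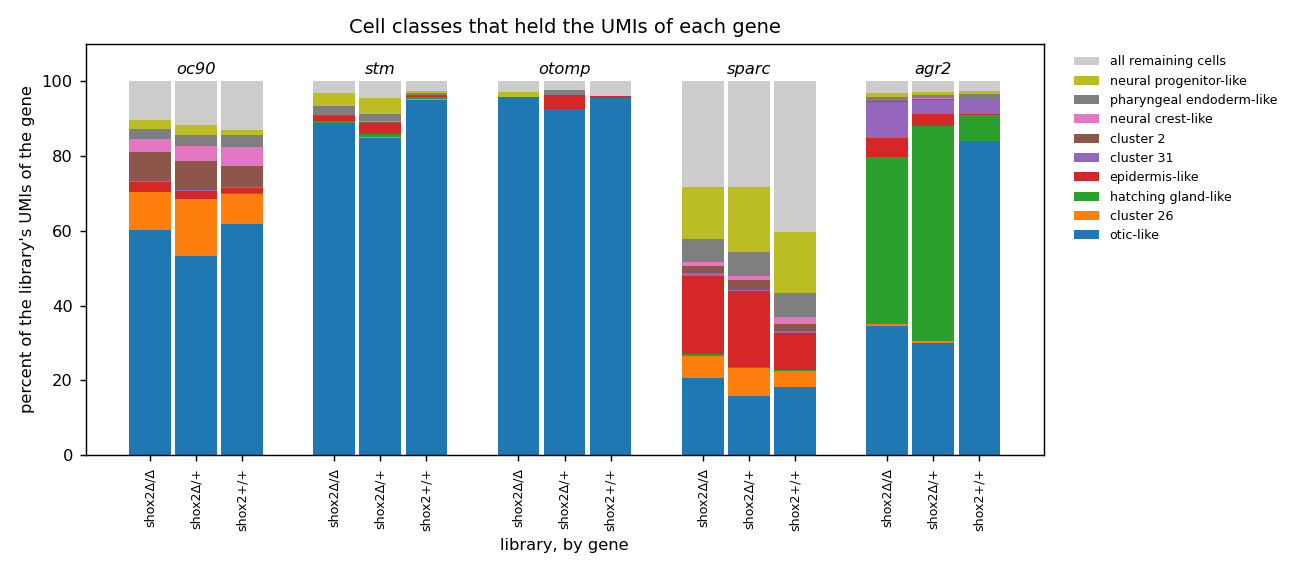
Percent of the UMIs of each gene in a library (y axis) that were held by each cell class (colours), for shox2Δ/Δ, shox2Δ/+ and shox2+/+ (bars within each gene). Otic-like cells held between 84.97% and 95.1% of stm and between 92.7% and 95.8% of otomp, while agr2 was split between otic-like (34.7%, 29.9% and 83.9%) and hatching gland-like cells (44.7%, 57.5% and 6.86%).

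Genes of related function were read in otic-like cells from lists, each judged over the genes with at least 50 CPM in either library compared. They were set beside the medians over all genes of 0.09 for shox2Δ/Δ and 0.00 for shox2Δ/+ over shox2+/+. Of the genes past 2-fold, creld2, gbx2, sox9b, nid2a and serpinh1b reached 50 CPM only in deletion libraries, and otx1 only in shox2+/+. Counts past 2-fold in the lists that hold them are therefore partly set by the filter, as are the shares over all genes. The lists were chosen with results of these data known. Of otolith and otic matrix or ion transport genes, 8 of 21 found were measured, with a median log2 ratio of 0.52 in shox2Δ/Δ and 0.41 in shox2Δ/+. At least 2-fold higher were 3 of 8 in shox2Δ/Δ and 1 of 8 in shox2Δ/+, and 0 were lower. Of all genes 4.47% and 2.56% were higher and 1.77% and 1.67% lower. These shares also stand beside the 2-fold counts of the lists below. The otolith list did not rise throughout: 7 of 8 and 6 of 8 were above 0. The share of all genes above 0 was not computed, so counts above 0 here and below describe the lists only. col9a1b was at −0.27 and −0.15, and otog at 0.07 and −0.22. cahz, a carbonic anhydrase gene, had 321 CPM in shox2Δ/Δ and 175 CPM in shox2Δ/+, against 135 CPM in shox2+/+ (log2 ratios 1.25 and 0.38). cdh11, a cadherin gene needed for otolith assembly in zebrafish, had 517 and 428 CPM, against 236 CPM (1.13 and 0.86). matn4, a matrilin gene of cartilage matrix, had 382 and 444 CPM, against 180 CPM (1.08 and 1.30), but 27.3 and 27.9 CPM, against 30.8 CPM, in all other cells. col2a1a, a fibrillar collagen gene also held in the collagen list, had 250.4 and 255 CPM, against 188 CPM (0.41 and 0.44).

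Of 27 genes for folding and secretion in the endoplasmic reticulum, the pathway in which agr2 acts, 20 were measured for shox2Δ/Δ and 19 for shox2Δ/+. Their median log2 ratio was 0.58 in shox2Δ/Δ, with 3 of 20 at least 2-fold higher, and 0.36 in shox2Δ/+, with 2 of 19. None was 2-fold lower, and 19 of 20 and 15 of 19 were above 0. ssr3, a translocon-associated protein gene, had 1297 CPM in shox2Δ/Δ and 1079 CPM in shox2Δ/+, against 497 CPM in shox2+/+ (1.38 and 1.12). In all other cells it differed alike, with 987 and 892 CPM, against 379 CPM. xbp1, a transcription factor gene of the unfolded protein response, had 339 and 323 CPM, against 144 CPM (1.23 and 1.16), and 364 and 350 CPM, against 175 CPM, in all other cells. creld2, which encodes a stress-induced protein of this compartment, had 53.1 and 39.4 CPM, against 21.9 CPM (1.28 and 0.85), and 25.1 and 22.9 CPM, against 15.2 CPM, in all other cells. sec61b, a subunit of the translocation channel, had 399 and 368 CPM, against 250 CPM (0.67 and 0.56). pdia3, a protein disulfide isomerase gene, had 351 and 381 CPM, against 302 CPM (0.22 and 0.33), and 193 and 201 CPM, against 141 CPM, in all other cells. The median of this list and the ratio of agr2 itself had opposite signs.

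Of 26 otic patterning regulators found, 17 were measured, with medians of 0.21 in shox2Δ/Δ and 0.20 in shox2Δ/+. In each comparison 3 were at least 2-fold higher and 1 lower. dlx3b, which helps to establish the otic placode, had 469 CPM in shox2Δ/Δ and 364 CPM in shox2Δ/+, against 156 CPM in shox2+/+ (1.59 and 1.22). In all other cells it was at 28.2 and 31.7 CPM, against 27.4 CPM. gbx2 had 97.6 and 95.2 CPM, against 45.4 CPM (1.11 and 1.07). otx1, a regulator of ventral otic patterning, was the lower one, with 18.6 and 19.6 CPM, against 50.05 CPM (−1.43 and −1.35), although in all other cells it was at 10.4 and 14.5 CPM, against 3.63 CPM. sox9b was at 1.03 and 0.93, and gata3 at 0.95 and 1.03. Among the most abundant, six1b was at 527 and 526 CPM, against 627 CPM (−0.25 and −0.25), and eya1 at 366 and 390 CPM, against 361 CPM (0.02 and 0.11). sox10 was at 377 and 366 CPM, against 306 CPM (0.30 and 0.26). Several of these regulators are also otic markers that named the cluster.

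Of 17 collagen and basement membrane genes, the partners of sparc in matrix, 5 were measured, with medians of 1.01 in shox2Δ/Δ and 0.75 in shox2Δ/+. At least 2-fold higher were 3 of 5 and 1 of 5, and 0 were lower. Above 0 were 4 of 5 in each comparison, while fn1a was at −0.22 and −0.58. serpinh1b, a collagen chaperone gene, had 276 CPM in shox2Δ/Δ and 154 CPM in shox2Δ/+, against 41.4 CPM in shox2+/+ (2.74 and 1.90). It also differed in all other cells, with 152 and 92.4 CPM, against 34.1 CPM. nid2a, a nidogen gene, had 93.0 and 65.01 CPM, against 33.8 CPM (1.46 and 0.94), and 98.8 and 89.7 CPM, against 65.4 CPM, in all other cells. col5a1, a fibrillar collagen gene, had 266 and 221 CPM, against 132 CPM (1.01 and 0.75).

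The genes whose levels most resembled each member over the 18 classes of the 3 libraries (Pearson's r of log2 CPM plus 1 over 54 points, among 5680 genes) overlapped in part between members. These points share libraries and depth, so r is given as a description. stm and otomp shared vsig8a (r = 0.84 with stm and 0.93 with otomp) and zgc:194210 (0.85 and 0.91), and otomp was closest to si:ch211-80h18.1 (0.94), with mb (0.91) and bricd5 (0.90) after these. stm was closest to si:ch211-137a8.2 (0.88), si:ch211-243g18.2 (0.87) and si:dkey-222f2.1 (0.86), all of them led by otic-like cells: si:dkey-222f2.1 had 1570, 1463 and 888 CPM there and 8.20, 7.94 and 6.31 CPM in other cells of shox2Δ/Δ, shox2Δ/+ and shox2+/+.

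oc90 had looser companions, which included the cilium genes cfap45 (0.75) and ccdc103 (0.74) beside capsla (0.76), zgc:153738 (0.76) and cahz (0.75). sparc was nearest to pdia4 (0.82), a protein disulfide isomerase gene, ggcx (0.81), efcab1 (0.80), adcy7 (0.79) and kdelr2b (0.79), a receptor gene for retention in the endoplasmic reticulum. agr2 was nearest to si:ch211-243g18.2 (0.92), cahz (0.88), the sodium pump gene atp1a1a.4 (0.85), s100s (0.85) and gipc3 (0.84). Among the members themselves r was 0.83 for otomp and agr2, 0.82 for stm and otomp, 0.82 for stm and agr2, 0.62 for oc90 and stm, and 0.44 for oc90 and sparc.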

How the data were processed

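Single-cell libraries were made with the Chromium 3′ v3 kit, and the authors deposited UMI counts per gene and barcode from Cell Ranger 4.0.0, aligned to GRCz11 with DsRed and EGFP added. Cells with at least 500 and under 6500 genes and under 5% mitochondrial UMIs were kept (median 17494, 16570 and 19450 UMIs in shox2Δ/Δ, shox2Δ/+ and shox2+/+). They were clustered together in Scanpy 1.11.5 (40 components, 10 neighbours, Leiden resolution 1), after regression on total counts and mitochondrial percent. Of 42 clusters, 30 were named from marker lists. The members and lists were chosen with earlier results of these data known.

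For each library and class, UMIs were pooled and scaled to CPM. Intervals were exact (Poisson, or Clopper-Pearson for shares and ratios, SciPy 1.17.1). A share of 0 is given with the limit that 3 counts allow. With 1 library per genotype there was no test, and a gene counted as called when it differed by 2-fold or more and reached 50 CPM on either side (10 CPM in pharyngeal endoderm-like cells and cluster 3). The ratio calculation was run on simulated Poisson counts with known folds. These held no spread between cells and no shared barcodes, so the run checks the calculation only. Named genes were the members, the list genes past 2-fold with up to 3 of the most abundant per list, and the 5 genes closest to each member. Genes below 0 in the otolith and collagen lists were named as well. Genes named to describe a cluster were its leading or defining genes. A doublet caller marked 0.0450%, 0.158% and 1.56% of cells and was not used; the highest 8% of scores were left out in an alternative. Levels without cells of 10 or more UMIs of a gene were added after the data were seen. This cut is on the gene compared and tends to take more from a library with a higher level, which narrows differences between libraries. Other alternatives changed the clustering, the choice of otic cells, the scaling and the weight of cells. Overlapping genes and near-identical copies were not examined. No sequences were printed and no promoter motif was searched, since no genome sequence was used here.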

Additional observations from a re-analysis of the deposited data

Results flagged for a closer look

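The direction of the difference between genotypes was not the same in otic-like and in other cells for agr2. Its log2 ratio of shox2Δ/Δ over shox2+/+ was −0.94 in otic-like cells and 2.29 in all other cells, and that of shox2Δ/+ over shox2+/+ was −0.95 in otic-like cells and 2.20 in all other cells. Hatching gland-like cells held 44.7%, 57.5% and 6.86% of the agr2 UMIs of shox2Δ/Δ, shox2Δ/+ and shox2+/+, and without them the values in all other cells were 1.45 in shox2Δ/Δ and 0.56 in shox2Δ/+. Without the other cells that held 10 or more agr2 UMIs, the level of all other cells was 3.10 CPM in shox2Δ/Δ and 3.29 CPM in shox2Δ/+, against 2.08 CPM in shox2+/+. For sparc, the ratio of shox2Δ/+ over shox2+/+ was 0.10 in otic-like cells and −0.11 in all other cells. These opposite signs did not hold throughout: without shared barcodes the value in all other cells was 0.02. In the pooled non-neural otic subclusters it was −0.17. With 1 library per genotype none of these differences was tested.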

How the results depend on the processing

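Under each alternative the 5 genes were higher in otic-like than in other cells in all 15 pairs of gene and library. This was 10 of 10 where shox2Δ/Δ and shox2+/+ were clustered alone. No share over all genes was computed beside these counts. The sizes of the ratios of otic-like to other cells stayed within counting error of the main result for 46 values and moved by more for 99. The genotype ratios were less steady in direction. Of these, 46 values stayed within counting error of the main result and 63 moved by more. Another 6 turned sign where the main interval did not include 0. sparc changed sign under several alternatives and stm under 1 (cells chosen by marker count), while oc90 stayed above 0 and agr2 below 0 in all. Values below are log2 ratios over shox2+/+ in the cells taken as otic under each alternative, and the cause of each move was not tested. At resolution 0.5, stm was 0.37 and sparc −0.020 in shox2Δ/Δ, and oc90 0.69, stm 0.29 and sparc 0.030 in shox2Δ/+. At resolution 2, oc90 was 0.64, stm 0.20, sparc −0.17 and agr2 −1.16 in shox2Δ/Δ, and 0.56, 0.15, −0.10 and −1.15 in shox2Δ/+. Without regression they were 0.62, 0.16, −0.20 and −1.20, and 0.56, 0.14, −0.10 and −1.16. With shox2Δ/Δ and shox2+/+ clustered alone they were 0.63, 0.17, −0.18 and −1.19. With cells chosen by a count of otic markers they were 0.37, −0.026, −0.29 and −1.41, and 0.21, −0.12, −0.22 and −1.48. Many of the cells so chosen were from other clusters: 116 of 251 in shox2Δ/Δ, 95 of 244 in shox2Δ/+ and 155 of 287 in shox2+/+ lay in the otic-like cluster. Without neuroblast-led subclusters oc90, stm, sparc and agr2 were 0.56, 0.081, −0.26 and −1.32, and 0.46, 0.037, −0.17 and −1.26. Without the highest doublet scores, oc90 was 0.70 and stm 0.31 in shox2Δ/+. Under median-of-ratios scaling, which shifts all genes by −0.07 in shox2Δ/Δ, oc90 was 0.77, stm 0.33, sparc −0.048 and agr2 −1.02 there. Cells thinned to 3000 UMIs gave oc90 0.70, stm 0.12 and agr2 −0.84 in shox2Δ/Δ, and oc90 0.65, stm 0.16, otomp −1.30, sparc 0.056 and agr2 −0.73 in shox2Δ/+. Means over cells gave oc90 0.48, stm 0.17, otomp −0.15, sparc −0.070 and agr2 −0.32 in shox2Δ/Δ, and oc90 0.69, stm 0.27, sparc 0.14 and agr2 −0.60 in shox2Δ/+. Chosen after seeing the data, leaving out shared barcodes gave stm 0.33, sparc −0.16 and agr2 −0.80 in shox2Δ/Δ, and stm 0.29 and agr2 −0.86 in shox2Δ/+, with 109, 139 and 154 cells left in shox2Δ/Δ, shox2Δ/+ and shox2+/+. The number of members past 2-fold, 0 otherwise, became 1 (agr2) under the alternatives that follow. In shox2Δ/Δ these were resolution 2, no regression, separate clustering, marker count, no neuroblast-led subclusters, no shallower copies and median-of-ratios scaling. In shox2Δ/+ they were both resolutions, no regression, marker count and no neuroblast-led subclusters. The share of all genes past 2-fold was not computed under these alternatives, so the counts describe the level of agr2 only.

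Over the alternatives 106 values of the thinned shares stayed within counting error and 54 moved by more. The number of pairs above endothelium-like cells, 13 of 15, stayed within 12 to 14, with no share over all genes computed beside it. otomp rests on 69 to 149 UMIs, so that small differences in it were not detectable at this depth. No paired analysis was possible because each genotype had 1 library, and leaving out a replicate was not possible for the same reason.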
